A study of Mus musculus with 12 samples.

Results

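The level of 8 genes of myelinating Schwann cells, Mbp, Pmp22, Mag, Prx, Egr2, Gjb1, Cldn19 and Drp2, was followed in sensory neuronal fractions from the mouse trigeminal ganglion (TG) and from dorsal root ganglia (DRG). The genes were found by their symbols among the 22609 genes counted in each of 12 RNA-seq libraries, and all 8 were present. The study looked for sex differences in gene expression. The libraries fall into 4 groups of 3, with DRG and TG of each sex. All groups came from naïve wild-type mice (Wt in the titles) of strain C57BL, named C57BL/6J in the study's methods and labelled 3 to 4 months old, and the study's methods place the females in the estrous phase and the DRG at lumbar levels. Ganglia were dissociated with enzymes, and cells that band at the density of neurons were collected on a Percoll gradient, so the fraction is enriched for sensory neurons but not sorted for them. The study describes the fraction as mostly neurons. The 8 genes were followed for the myelin RNA that it still carries, although Pmp22 is also made outside the Schwann cell lineage. In bulk RNA, fewer cells of a type and less RNA per cell cannot be told apart. The series lists 3 females and 3 males. It does not say whether each TG library shares its animal with a DRG library, and p-values here measure only the spread between these libraries.

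In peripheral nerve and in the ganglia, a myelinating Schwann cell wraps a segment of a large axon in compact membrane, which speeds conduction. The products of Mbp and Pmp22 are parts of compact myelin, while channels, junctions and anchoring complexes sit in the cytoplasm-filled parts of the sheath. Egr2 and Sox10 encode the transcription factors that switch on most of these genes, and mutations in several of them cause demyelinating Charcot-Marie-Tooth neuropathy.

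Promoters were compared because EGR2 and SOX10 act on many genes of this set. RefSeq start sites (build GRCm38.p6) were searched over 250 bases for 6 of the 8 genes, with 19 start sites in all. Mbp and Drp2 were not analysed here. An EGR-type motif, GNGTGGGNG on either strand, was present for 2 genes, Prx and Gjb1. It was in 2 of the 19 start sites (10.5%), and in 12.7% of all 32851 promoters. A SOX-type motif, ACAANG on either strand, was present for 3 genes, Mag, Egr2 and Gjb1, in 6 of the 19 start sites (31.6%) and in 36.3% of all promoters. The 4 start sites of Pmp22 and the 2 of Cldn19 held neither. The sequences below are those of Prx, the gene with the largest fold change among those called between the sexes, and of Mag and Gjb1, which hold a facing pair of SOX-type motifs. Each runs 5′ to 3′ toward the start site on the gene's own strand, and capitals mark the motif matches, which do not overlap each other. The pair in Mag lies in overlapping windows and was counted at each of them. How often all promoters hold such a pair, or both motifs, was not counted. A match of these letters is not evidence of binding.
Prx, chr7:27499074-27499323, plus strand: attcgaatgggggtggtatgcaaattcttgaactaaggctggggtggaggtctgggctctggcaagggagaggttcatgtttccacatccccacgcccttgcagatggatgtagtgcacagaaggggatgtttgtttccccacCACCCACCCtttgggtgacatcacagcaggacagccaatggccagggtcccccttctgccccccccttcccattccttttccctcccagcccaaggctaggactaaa
Mag, chr7:30914923-30915172, minus strand: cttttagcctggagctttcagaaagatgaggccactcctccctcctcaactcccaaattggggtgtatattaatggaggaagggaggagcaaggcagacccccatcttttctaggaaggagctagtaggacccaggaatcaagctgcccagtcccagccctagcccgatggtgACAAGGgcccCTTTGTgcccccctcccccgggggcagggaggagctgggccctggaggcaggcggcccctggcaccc
Gjb1, chrX:101383482-101383731, plus strand: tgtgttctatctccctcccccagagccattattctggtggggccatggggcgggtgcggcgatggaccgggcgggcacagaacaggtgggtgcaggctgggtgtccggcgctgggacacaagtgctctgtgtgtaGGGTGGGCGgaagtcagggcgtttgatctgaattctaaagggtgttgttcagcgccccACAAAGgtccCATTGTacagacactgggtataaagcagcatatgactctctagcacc
The match in Prx began 107 bases before the start. In Gjb1 the EGR-type match began 115 bases before the start, and the SOX-type pair began at 57 and 47 bases. The pair in Mag began at 77 and 67 bases. Gjb1 thus held both motifs in 1 window, and its level is set beside that of the other genes further on.

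The libraries held 7511765 to 15396090 reads in genes, at which 3 counts correspond to 0.195 to 0.399 CPM, the read count scaled to library size and by TMM factors. Xist was counted 9351 to 15691 times in female and 4 to 11 times in male libraries, which matched the labels. Reads outside genes made up 46.4 to 50.4% of reads in and outside genes in female DRG, 38.2 to 42.6% in male DRG, 43.5 to 49.1% in female TG and 37.6 to 47.9% in male TG. Within TG, male TG 3 had the highest share of its group and female TG 3 the lowest. The same 2 libraries stood apart from their groups for most of the myelin genes, so the female-selective calls in TG are also given without them. Since this choice rests on the same genes, those calls describe how much the 2 libraries weigh and do not test a sex difference.

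The 8 genes together took 0.148 to 0.208% of the reads in genes. The lowest share was in female DRG 2 (95% Wilson interval 0.145 to 0.150%) and the highest in male TG 3 (0.205 to 0.211%). These intervals cover counting error only, since amplified reads are not independent molecules. The summed level was 1712 ± 296 CPM in female DRG, 1981 ± 83.7 in male DRG, 1622 ± 204 in female TG and 1818 ± 208 in male TG (SD, n = 3), and the sexes overlapped in both ganglia. Pmp22 alone made up 46.8 to 81.9% of the counts of the 8 genes. The sum thus mainly followed this gene and was not read as an amount of myelin RNA. Without Pmp22, the other 7 genes summed to 602 ± 143 CPM in female DRG, 407 ± 19.0 in male DRG, 699 ± 255 in female TG and 452 ± 206 in male TG. The female DRG libraries (lowest 492 CPM) lay above the male ones (highest 419 CPM). In TG the sexes overlapped, with male TG 3 at 688 CPM and female TG 3 at 448 CPM.

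**Figure D1:**
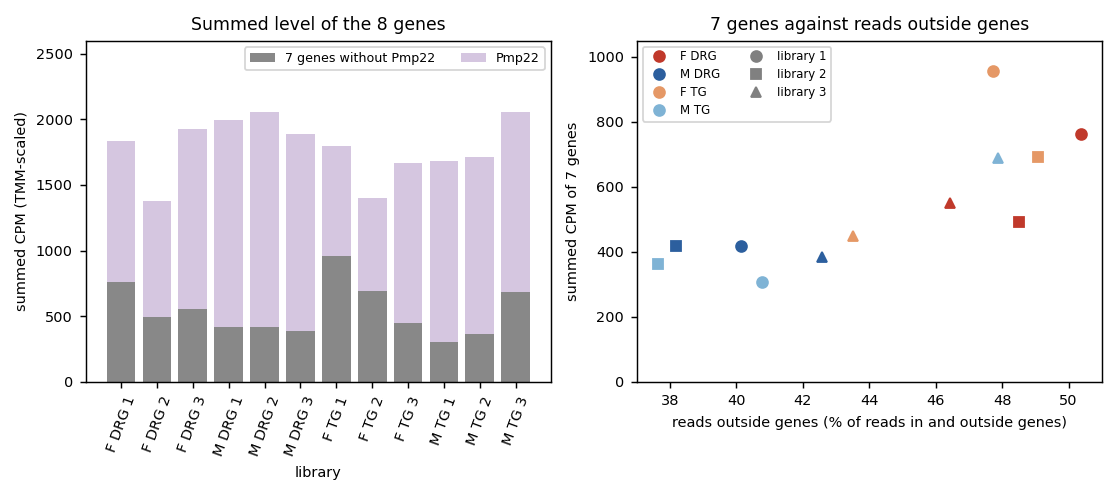
Left, summed CPM of the 8 genes in each of the 12 libraries, stacked as Pmp22 and the other 7 genes (F, female; M, male). Right, the summed CPM of the 7 genes against the percent of reads outside genes, 1 point per library; male TG 3 lies at 47.9% and 688 CPM, apart from the other male libraries, which lie between 306 and 419 CPM.

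Per length of exon, the 8 genes spanned a wide range. Over the 12 libraries, Pmp22 stood first at 528 ± 129 CPM per kilobase (SD, n = 12) and Mbp second at 39.5 ± 13.4. They were followed by Drp2 (11.1 ± 4.20), Prx (10.5 ± 5.63), Cldn19 (6.52 ± 3.17), Egr2 (4.63 ± 1.97), Mag (3.25 ± 2.05) and Gjb1 (1.499 ± 1.05), all in CPM per kilobase. The ranges of Pmp22 and Mbp did not overlap, nor did those of Mbp and Drp2. Each later neighbour in this order overlapped the next. Within libraries the order was steadier, as Prx exceeded Cldn19 in 12 of 12, while Drp2 exceeded Prx in 9 of 12. The counts behind these levels ran from 8827 to 19521 for Pmp22 and from 5 to 72 for Gjb1, so that the values of Gjb1 are the least precise.

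Pmp22 (mm9 chr11:62942484-62973049, plus strand), a membrane protein of compact myelin that is also made outside the Schwann cell lineage, went against the rest of the set. It stood at 1069, 882 and 1378 CPM in female DRG 1 to 3 and at 1574, 1641 and 1507 CPM in male DRG. In TG it stood at 842, 709 and 1219 CPM in the female and at 1380.0, 1348 and 1371 CPM in the male libraries. In both ganglia every male library lay above every female library. Over the 12 libraries its r was -0.651 with the list of further myelin genes and 0.715 with that of sensory neuron markers (lists below). As deviations from the group means these were -0.554 and 0.661. Every other gene of the set had the reverse signs over the 12 libraries. What the RNA of Pmp22 stands for in these fractions was not tested.

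Mbp (chromosome 18), the basic protein that compacts the inner faces of the membrane, showed the opposite order. Its level was 473, 302 and 326 CPM in female DRG 1 to 3 and 277, 270.2 and 223 CPM in male DRG. In TG it was 584, 416 and 292 CPM in the female and 202, 238 and 382 CPM in the male libraries. The sexes did not overlap in DRG, and in TG the overlap came from female TG 3 and male TG 3.

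Among genes of the noncompact sheath, Prx (mm9 chr7:28284343-28305233, plus strand) encodes periaxin, which anchors the sheath through the dystroglycan complex. Prx stood at 73.6, 50.0 and 50.0 CPM in female DRG and at 37.1, 39.7 and 45.8 CPM in male DRG. In TG it stood at 134, 94.4 and 47.9 CPM in the female and at 22.03, 33.2 and 77.3 CPM in the male libraries. The 2 highest of all 12 values were female TG 1 and 2.

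Drp2 (mm9 chrX:130939090-130991112, plus strand), the dystrophin-related partner of periaxin, was at 140.4, 89.8 and 129.5 CPM in female DRG and at 66.9, 70.8 and 78.9 CPM in male DRG. In TG it was at 135, 96.8 and 59.4 CPM in the female and at 54.3, 62.5 and 157 CPM in the male libraries. The highest value of all was that of male TG 3, while the DRG groups did not overlap.

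Cldn19 (mm9 chr4:118928019-118935043, plus strand) encodes a claudin of the tight junctions within the sheath. It was at 40.1, 28.8 and 17.8 CPM in female DRG and within 18.04 to 18.41 CPM in the 3 male DRG libraries. In TG it was at 52.7, 49.8 and 26.2 CPM in the female and at 12.8, 16.7 and 33.7 CPM in the male libraries. The exons of Prx and of Cldn19 each overlap an annotated antisense transcript (Gm15541 and Gm12927). The strand setting of the counting is not given in the sources used here.

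Mag (mm9 chr7:31684202-31699851, minus strand), the adhesion protein of the membrane next to the axon, was low. Its levels were 11.3, 4.18 and 9.99 CPM in female DRG, 1.68, 5.63 and 7.72 CPM in male DRG, 18.1, 12.3 and 6.23 CPM in female TG and 3.82, 1.59 and 11.98 CPM in male TG. The groups overlapped in both ganglia.

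Gjb1 (mm9 chrX:98571717-98580968, plus strand), which encodes the gap junction protein connexin 32, was the lowest. It was counted 27, 15 and 22 times in female DRG and 72, 5 and 8 times in male DRG, so that male DRG 1 alone held the highest count. In TG it was counted 53, 37 and 41 times in the female and 24, 34 and 11 times in the male libraries. On the CPM scale the female TG libraries (2.97 to 4.66) lay above the male ones (1.08 to 2.35).

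Egr2 (mm9 chr10:66998223-67004936, plus strand), the regulator of the program, was at 21.2, 15.5 and 16.1 CPM in female DRG and at 11.4, 11.4 and 10.8 CPM in male DRG. In TG it was at 29.0, 19.1 and 12.7 CPM in the female and at 8.10, 8.29 and 25.1 CPM in the male libraries. The DRG groups did not overlap, and in TG male TG 3 lay among the female values.

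**Figure D2:**
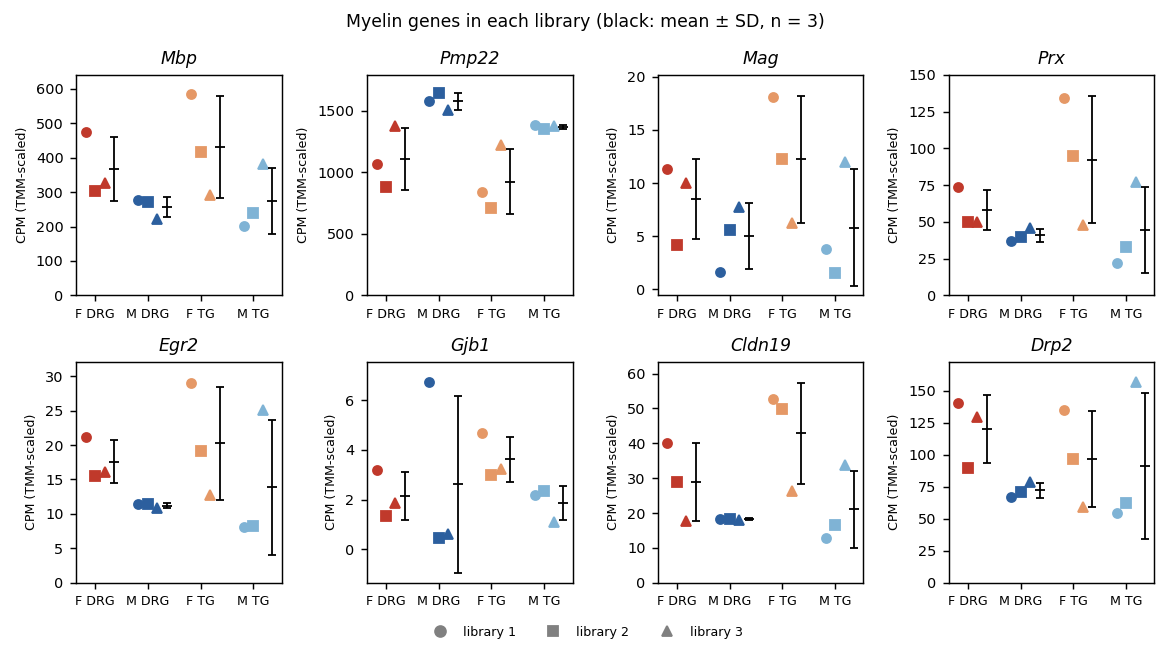
CPM of each of the 8 genes in the 12 libraries by group (F, female; M, male), with library numbers 1 to 3 as circles, squares and triangles and the mean ± SD (n = 3) in black. Male DRG libraries lie closely together for all genes but Gjb1 and Mag, and male TG 3 stands above the other male TG libraries for Mbp, Prx, Egr2, Cldn19, Drp2 and Mag.

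In TG, 2 myelin genes were female-selective by the criteria that the study used for DEGs, a fold change above 2 at an unadjusted p under 0.05 with a level above 1 in the higher sex (here in CPM). These were Cldn19, with a log2 fold change of 1.08 (SE 0.40; unadjusted p = 0.0212) and Prx, with a log2 fold change of 1.11 (SE 0.47; unadjusted p = 0.0380). The same criteria were met by 5.15% of the 14009 genes tested in that direction and by 2.26% in the male direction, which no myelin gene met. By edgeR's quasi-likelihood test with Benjamini-Hochberg adjustment, neither passed (adjusted p = 0.188 and 0.222), nor did any other of the 8 genes. At an unadjusted p under 0.05, 4 of 8 passed, and by DESeq2 0 of the 7 with an adjusted p passed and 4 of 8 passed unadjusted. Of all genes tested, 0.0357% passed after adjustment by edgeR and 20.7% at an unadjusted p under 0.05.

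The log2 fold change was 0.70 for Mbp (SE 0.32; unadjusted p = 0.0475) and -0.52 for Pmp22 (SE 0.23; unadjusted p = 0.0417), both smaller than the fold that the study required. Mag at 1.13 (SE 0.67), Gjb1 at 0.99 (SE 0.79), Egr2 at 0.60 (SE 0.49) and Drp2 at 0.14 (SE 0.42) did not pass at an unadjusted p. Gjb1 was the sole gene whose female libraries all lay above the male ones, a pattern seen in 11.2% of genes tested, and Pmp22 the sole gene with the reverse, seen in 12.5%. Of the 8 log2 fold changes 7 were positive, against 52.8% of all genes tested. Their median was 0.85, and that of all genes tested was 0.05.

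These calls rested on single libraries. No gene met the criteria without female TG 1, without female TG 2, without male TG 1 or without male TG 2. Without male TG 3, 5 genes met them (Cldn19, Egr2, Mag, Mbp and Prx), and without female TG 3, 3 genes did (Cldn19, Mag and Prx). Without both, which leaves 2 libraries per sex, 5 genes met them. Over all genes the calls in the female direction rose too, from 721 of 14009 tested with all libraries. They were 1013 of 14384 without male TG 3, 1294 of 14379 without female TG 3 and 1838 of 14170 without both. After adjustment by edgeR, 4 genes passed without female TG 3 (Cldn19, Mbp, Pmp22 and Prx), 0 without male TG 3, and 7 without both, all but Gjb1. Over all genes, calls after adjustment were 1 higher and 4 lower of 14009 with all libraries. They rose to 1558 and 1836 of 14379 without female TG 3 and to 2972 and 3279 of 14170 without both. Without both, the log2 fold changes were 2.05 for Prx, 1.80 for Cldn19, 2.51 for Mag, 1.19 for Mbp, 1.56 for Egr2, 0.99 for Drp2 and -0.81 for Pmp22. The 2 libraries were picked by values of these genes that ran against the sex difference. Larger folds and more calls without them follow from that choice. Without female TG 1 those of Prx and Mbp fell to 0.69 and 0.37. With offsets for GC content and gene length the log2 fold changes were 0.63 for Cldn19 and 0.26 for Prx, and no gene met the criteria. Of the 8 genes, 7 had a GC content above the median of 49.2% for all genes, and Prx had the highest (57.8%).

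In female over male DRG, 6 of 8 log2 fold changes were positive (51.4% of all genes tested). No gene met the study's criteria, which 2.01% of the 13963 genes tested met in the female and 2.96% in the male direction. An unadjusted p under 0.05 was seen for Drp2, with a log2 fold change of 0.74 (SE 0.28; unadjusted p = 0.0220; adjusted p = 0.352 by edgeR's quasi-likelihood test). After adjustment 0 of 8 passed by edgeR (0.0358% of all genes) and 0 of the 4 with an adjusted p by DESeq2. At an unadjusted p under 0.05, 1 of 8 passed by edgeR (11.8% of all genes) and 3 of 8 by DESeq2. Other log2 fold changes were 0.53 for Mbp (SE 0.27), 0.50 for Prx (SE 0.30), 0.65 for Egr2 (SE 0.40), 0.67 for Cldn19 (SE 0.38) and 0.75 for Mag (SE 0.73). Pmp22 again had a negative value of -0.50 (SE 0.25), and the value of -0.27 for Gjb1 (SE 1.40) was 1.93 without male DRG 1. Without female DRG 1 the values were 0.29 for Mbp, 0.28 for Prx, 0.35 for Cldn19 and 0.48 for Mag, and Mag ran from 0.34 to 1.25 over the libraries left out. With GC-length offsets they were 0.060 for Prx, 0.23 for Mbp and -0.26 for Pmp22.

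The order of the DRG libraries was clear for 5 genes. For Mbp, Prx, Egr2 and Drp2 every female DRG library lay above every male one, and this was true of 7.85% of genes tested. For Pmp22 every male library lay above, which was true of 9.63%. The median log2 fold change of the 8 genes was 0.59 against 0.02 for all genes tested.

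Between the ganglia, with the sexes balanced, no gene of the set passed the test. The log2 fold changes of TG over DRG ran from -0.23 for Pmp22 (SE 0.17) to 0.39 for Prx (SE 0.29), with adjusted p between 0.820 and 0.9998 by edgeR's quasi-likelihood test, and 0 of 8 passed at an unadjusted p under 0.05 by either tool. Of 14829 genes tested, 0.964% passed after adjustment and 8.83% unadjusted. No gene of the set had TG libraries that all lay above the DRG libraries (0.998% of genes tested) or all below them (0.364%). For the sex difference in TG less that in DRG, the interaction term had adjusted p = 0.9998 for all 8 genes by edgeR, with 0 of 8 at an unadjusted p under 0.05 by either tool. Of all genes, 0% passed after adjustment and 1.97% unadjusted. The interaction was 1.24 for Gjb1 (SE 1.57), -0.64 for Drp2 (SE 0.52) and 0.56 for Prx (SE 0.57) on the log2 scale, and smaller in size for the other 5 genes.

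**Figure D3:**
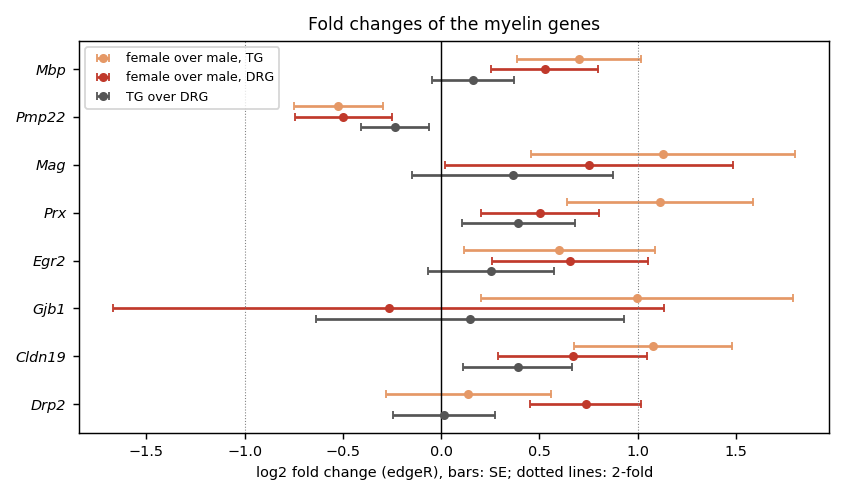
Log2 fold changes of the 8 genes by edgeR with their SE, for female over male in TG and in DRG (3 libraries a group) and for TG over DRG (6 libraries a group); dotted lines mark a 2-fold change. In TG, Mag, Prx and Cldn19 lie above the 2-fold line, and Pmp22 lies on the negative side in all 3 comparisons.

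Among the 8 genes, 6 were high and low in the same libraries. For the 15 pairs among Mbp, Mag, Prx, Egr2, Cldn19 and Drp2, Pearson's r of log2 CPM over 12 libraries ran from 0.667 to 0.943 and Spearman's rho from 0.671 to 0.965. All 15 pairs passed a permutation test after adjustment over the 28 pairs of the set. The 6 were grouped after the correlations were seen, so this result and the shares that follow do not test the set. Over all 28 pairs r ran from -0.814 to 0.943 with a median of 0.683, and 18 passed. Of all pairs of the 14829 genes tested, 5.01% had an r of 0.667 or above, and 1.29% had at least the median of the 15 pairs (0.812). The highest was Prx with Cldn19 (r = 0.943, rho = 0.860, permutation p = 1e-05, the smallest that the permutations can give, adjusted p = 7e-05). Mbp with Egr2 followed (r = 0.942, rho = 0.965). For each pair, the 2 libraries farthest from the median of the gene listed first were then left out. These libraries differed between pairs, and r was between 0.602 and 0.924 without them.

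Because the groups differ, the correlation was also taken of deviations from the 4 group means. These gave 0.516 to 0.957 for the 15 pairs, of which 13 passed the permutation test. That test shuffles all values freely, while deviations within a group are tied by their shared mean. The count of 13 is therefore a description and not a test. In female TG 1 all 6 genes were above the mean of their group, and in male TG 3 they were likewise above theirs.

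Gjb1 did not share this pattern. With the 6 genes its r ran from -0.112 to 0.389, and 0 of the 6 pairs passed by Pearson or by Spearman. Pmp22 was negatively correlated with all 7 other genes (r from -0.814 to -0.362), and 3 pairs passed, those with Cldn19, Prx and Mbp. The r of -0.687 with Prx was -0.360 without the 2 libraries farthest from the median of Pmp22, female TG 1 and 2. On levels corrected for GC content and length, the r of Pmp22 ran from -0.437 to 0.0252 and none of its pairs passed, nor did any in residuals on the share of reads outside genes (-0.566 to 0.495). As deviations from group means its r ran from -0.589 to 0.0365. In all, 18 of 28 pairs passed.

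**Figure D4:**
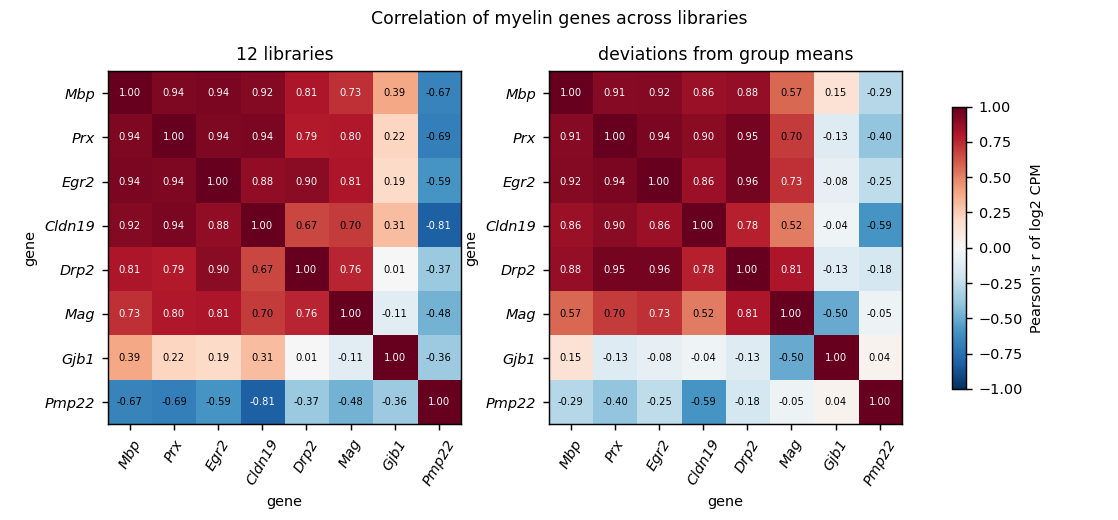
Pearson's r of log2 CPM for each pair of the 8 genes over 12 libraries (left) and of the deviations from the 4 group means (right); red is positive, blue negative. The block of Mbp, Prx, Egr2, Cldn19, Drp2 and Mag lies between 0.667 and 0.943 on the left, while the row of Pmp22 is negative.

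The share of reads outside genes was correlated with the same genes. Its r with log2 CPM was 0.845 for Egr2, 0.800 for Cldn19, 0.797 for Drp2, 0.771 for Mbp, 0.768 for Prx and 0.749 for Mag, each with a permutation p adjusted over the 8 genes between 0.00578 and 0.00721. Spearman's rho for these 6 genes ran from 0.727 to 0.825 (adjusted permutation p between 0.0103 and 0.0108). For Pmp22 r was -0.725 (rho = -0.727; adjusted permutation p = 0.00922 and 0.0108) and for Gjb1 it was 0.181 (rho = 0.126; adjusted permutation p = 0.567 and 0.697). Of all genes tested, 4.16% had an r with this share at or above that of Mag, and 10.2% at or below that of Pmp22. Without the 2 libraries farthest from the median share, r for the 6 genes ran from 0.723 to 0.831. In residuals on this share, 6 of the 28 pairs still passed, all within the 6 genes, whose r then ran from 0.0818 to 0.855. This share was also higher in female than in male DRG, and its part in the sex differences was not tested.

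Among 14821 other genes ranked by the likeness of their log2 CPM to the mean of the 8 over 12 libraries, those with the highest r included Adam11 (0.921), Fem1a (0.917), Cadm3 (0.915), Egr1 (0.907), Kif1a (0.899), Vars (0.896), Lrp3 (0.893), Cyfip2 (0.893) and Smurf1 (0.892). Of these, Egr1 is an early response gene, and Kif1a encodes a motor of axonal transport.

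Of 23 further myelin genes tested (structural proteins and lipid enzymes of the sheath), 2 were female-selective in TG, among them Itgb4, an integrin subunit of the outer Schwann cell membrane (log2 fold change 1.47, SE 0.42). In DRG 2 were female-selective, Itgb4 (1.36, SE 0.46) and Gldn (1.16, SE 0.50), which helps to cluster channels at nodes. None passed after adjustment by edgeR between the sexes, and 8 in TG and 5 in DRG passed at an unadjusted p under 0.05, against 20.7% and 11.8% of all genes. The female-selective counts here and below stand beside 5.15% of all genes in TG and 2.01% in DRG. The list's median on the log2 scale was 0.34 for TG and 0.33 for DRG. Hmgcs1, an enzyme of cholesterol synthesis, was listed at 0 in all libraries. Between ganglia 1 passed, Nfasc, whose products anchor the node and paranode and are also made by neurons. Nfasc stood at 122 ± 19.0 CPM in the DRG and 267 ± 83.6 CPM in the TG libraries (SD, n = 6; adjusted p = 0.00684 by edgeR).

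Of 16 Schwann cell regulators and receptors, 1 was female-selective in TG, Nab2, a cofactor that binds EGR2 (log2 fold change 1.45, SE 0.40; 16.3 ± 5.64 against 6.16 ± 1.66 CPM), and 0 in DRG. Of 11 other genes of demyelinating neuropathy, 1 was female-selective in TG, Sbf1 (1.15, SE 0.35), and 0 in DRG. Of 10 axonal partners and node genes, 0 were called between the sexes. Between ganglia 2 of these passed after adjustment by edgeR, the axonal channel genes Scn8a (log2 fold change 1.10, SE 0.18; adjusted p = 0.00255) and Kcna1 (0.92, SE 0.18; adjusted p = 0.0132), both higher in TG.

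Markers of other cells were read beside these values. Of 10 oligodendrocyte markers, Olig2 was at 0 in all libraries, Mog, Olig1 and Nkx6-2 were at or under 3 counts in all, and Mobp was at 56 counts in female TG 3 and at most 1 elsewhere. Opalin was counted at most 4 times, Ermn 8 times and Hapln2 14 times in a library. Cldn11 was counted 10 to 94 times (0.788 to 8.27 CPM). Its CPM was highest in female TG 1, as were those of Mbp, Mag, Prx, Egr2 and Cldn19. Mbp and Mag are also made by oligodendrocytes, and the part of such cells in their levels was not tested. Aspa made up most of this list, which summed to 35.4 to 95.6 CPM in female DRG, 63.4 to 115 in male DRG, 51.1 to 93.9 in female TG and 87.5 to 107 in male TG.

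Of 8 markers of fibroblasts and perineurium, 3 were female-selective in TG (Col1a2, Col1a1 and Col3a1) and 1 in DRG (Col1a1). In TG the log2 fold changes of Lum (0.0090) and Cldn1 (-0.20) were near 0 or negative. The list summed to 1244 to 1906 CPM in female TG, 834 to 1563 in male TG, 1596 to 2449 in female DRG and 1198 to 1754 in male DRG. Of 8 macrophage markers, 2 were female-selective in TG (C1qa and Csf1r) and 1 in DRG (Csf1r), with sums of 227 to 421 CPM in female TG, 110.1 to 245 in male TG, 140.6 to 334 in female DRG and 126 to 193 in male DRG. No marker of either list was at 0 in all libraries, and the part of these cells in the sex differences was not tested.

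Of 8 endothelial and mural markers, 1 was female-selective in TG (Pdgfrb) and 3 in DRG (Cdh5, Flt1 and Kdr), with sums of 523 to 809.9 CPM in female TG, 481 to 555 in male TG, 479 to 941 in female DRG and 335 to 497 in male DRG. Of 10 markers of non-myelinating, immature or repair Schwann cells, 8 were tested and 1 was female-selective in TG (Ngfr, log2 fold change 1.17, SE 0.30) and 0 in DRG, and Artn was at 0 in all libraries. The list summed to 1797 to 2959 CPM over the 12 libraries. Satellite glia markers (8 genes) had 0 calls in either ganglion and summed to 2662 to 6763 CPM.

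Sensory neuron markers (10 genes) had 0 calls in TG and 1 in DRG (Rbfox3, female-selective). Others of this list were lower in females at an unadjusted p under 0.05 but short of the fold or of adjustment by edgeR. These were Calca in DRG (-0.995, SE 0.26) and TG (-0.80, SE 0.32), Tubb3 in DRG (-0.76, SE 0.27) and Snap25 in TG (-0.78, SE 0.28), on the log2 scale, named after their values were seen. In TG Rbfox3 was higher in females at the same threshold (0.96, SE 0.39). Of the 10 markers, 5 had a positive value in TG and 3 in DRG. The median of the list was -0.26 in DRG and -0.09 in TG. The 10 markers summed to 6083 to 8571 CPM in female TG, 6421 to 9344 in male TG, 6044 to 9873 in female DRG and 8964 to 12082 in male DRG. The neuronal list was thus several times the summed level of the 8 myelin genes in every library. Such sums depend on the genes listed and are not scaled by length. The list of further myelin genes (24 counted) summed to 8319 to 10732.5 CPM in female DRG and 8507 to 10542 in male DRG. In TG it summed to 7518 to 9552 CPM in females and 8303 to 8729 in males. The sums were therefore not read as amounts of neuronal against myelin RNA. Of 5 red blood cell markers, the 4 globin genes were listed at 0 in all libraries and Alas2 was male-selective in TG (log2 fold change -1.04, SE 0.46). Immediate early genes, which respond to handling as well as to activity, had 4 female-selective calls of 10 tested in TG and 3 in DRG (Egr1, Junb and Nr4a1). Their sum was 393 to 786 CPM in female TG, 193 to 470.2 in male TG, 545 to 660.0 in female DRG and 283 to 349 in male DRG. Male TG 3 held the highest of the male TG sums, as it did for the myelin genes. It was also the highest male TG library for the genes named above from the fibroblast, macrophage and endothelial lists as female-selective, except C1qa. Egr2 is itself an early response gene in other cells, and the part of this response in the sex differences was not tested.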

How the data were processed

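RNA from 12 libraries of Percoll-enriched sensory neuronal fractions (3 per sex and ganglion) was depleted of ribosomal RNA and made into stranded libraries by the authors. They aligned single reads to build mm9 with TopHat2, and counted them with HTSeq; the deposited tables list raw counts by gene symbol. Tool versions, the annotation and the strand setting are not given in the sources used here. Stranded libraries counted without strand would mix Prx and Cldn19 with their antisense transcripts. Summary lines that name no gene were left out of library sizes; reads outside genes came to 37.6 to 50.4% of reads in and outside genes.

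Groups and library numbers came from the sample titles. Positions, exon lengths and GC contents came from GENCODE vM1 (mm9), which matched 21485 genes (95.0%). The sexes were compared in each ganglion with edgeR 4.0.16 in R 4.3.3 (filterByExpr, TMM, quasi-likelihood F-test, no replicate block) on 6 libraries. TG against DRG and the interaction used 1 model of 12 libraries. Benjamini-Hochberg adjustment covered every gene tested. The authors tested with DESeq after median normalization and set a minimum RPKM; here CPM stands in for it, and DESeq2 1.42.0 was an alternative. Other alternatives were DESeq2 size factors, no TMM factors, no filter on low counts, GC-length offsets, a replicate block and leaving out libraries. Correlations used log2 CPM (prior count 2) and 100000 permutations, two-sided. The fits were tested on simulated data. The 8 genes and the lists were chosen with earlier results of these data known. Named are the 8 genes, genes among the 10 most like their mean, up to 3 called genes with the smallest p per list, comparison and direction, and marker genes at 0. A gene that these rules name is not reported here.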

Additional observations from a re-analysis of the deposited data

Results flagged for a closer look

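In DRG, Prx in female DRG 1 stood at 73.6 CPM, far above the other 5 DRG libraries of both sexes, which ran from 37.1 to 50.0 CPM. The summed level of the 8 genes in female DRG 2 was 1374 CPM, far below the other DRG libraries, the next of which was at 1832 CPM. Both stood out by the gap to the nearest library relative to the range of the 6 DRG libraries, a comparison made for 18 sets of values and by which chance alone marks about 1 in 20.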

How the results depend on the processing

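Female over male in TG, 2 genes met the study's criteria, as they did with the model of 12 libraries, DESeq2 size factors, DESeq2, no TMM factors or no filter. Leaving out a library gave 0 to 5, GC-length offsets 0 and numbers 1 and 2 alone 5. DRG gave 0 in all settings (after adjustment 1 gene, Pmp22, with numbers 1 and 2 alone), and TG against DRG and the interaction 0 after adjustment. Without TMM factors the all-gene median (log2) was 0.16 for TG instead of 0.05, and 0.19 for DRG instead of 0.02. The TG calls over all genes were then 1031 higher and 163 lower instead of 721 and 317, and the DRG calls 583 and 165 instead of 281 and 413. No sign of the 8 genes changed with it. With GC-length offsets the DRG split was 302 and 137.

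Signs changed as follows; the cause was not tested. Female over male, Drp2 in TG was -0.036 with GC-length offsets and -0.22 to 0.79 over libraries left out. Gjb1 in DRG was 0.076 with GC-length offsets and -0.76 to 1.93 over libraries left out. For TG over DRG, Mbp was -0.00084 with GC-length offsets. Drp2 was -0.019 with either DESeq2 setting, -0.14 with GC-length offsets and -0.11 with numbers 1 and 2 alone, and Egr2 -0.041 with the latter. Leaving out libraries gave -0.18 to 0.59 for Mag, -0.12 to 0.39 for Egr2, -0.10 to 1.26 for Gjb1 and -0.30 to 0.15 for Drp2. For the interaction, Mag was -0.21 with GC-length offsets. Leaving out libraries gave -0.15 to 0.50 for Mbp, -0.31 to 0.13 for Pmp22, -0.13 to 1.47 for Mag, -0.45 to 0.71 for Egr2, -0.98 to 1.73 for Gjb1 and -0.96 to 0.050 for Drp2.

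Deviations of same-numbered libraries correlated at -0.098, 0.0098 and -0.094 between the sexes in TG, at 0.113, 0.0317 and 0.168 in DRG, and between TG and DRG at 0.0277, 0.117 and 0.212 in females and 0.0430, 0.117 and 0.216 in males. Since some were under 0.1 in each comparison, the numbers were not taken to pair the samples. Between TG and DRG, however, all were positive in both sexes. For TG over DRG the replicate block raised the calls after adjustment from 93 higher and 50 lower of 14829 genes to 306 and 256. With it 0 of the 8 genes passed after adjustment. Whether the numbers mark shared animals was not tested. With the block, Pmp22 for TG over DRG had an unadjusted p of 0.0332 by edgeR (adjusted p = 0.276), and 0.0153 (adjusted p = 0.196) with GC-length offsets added. With the replicate block 0 genes met the criteria in TG, also with GC-length offsets added. Under the block Gjb1 in DRG was 0.67 (0.88 with GC-length offsets), Drp2 for TG over DRG -0.093 (-0.21), Mbp and Egr2 with both -0.0058 and -0.0072, and the interaction 0.057 for Egr2 and, with both, -0.047 for Gjb1.

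Of 28 correlated pairs, 18 passed, 13 to 19 with a library left out, and 6 in residuals on the share of reads outside genes. That alternative, GC-length-corrected levels (12 pairs) and numbers 1 and 2 alone (17) were chosen after seeing the data. Depth limits Gjb1 and Mag most, with as few as 5 and 18 counts.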
